A study of Rattus norvegicus with 25 samples.

Results

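Proteasome subunit, regulator and chaperone genes were followed through 7 stably transfected lines of the lipoprotein-secreting rat hepatoma cell McArdle-RH7777. All probe sets were taken whose only gene symbol begins with Psma, Psmb, Psmc, Psmd, Psme, Psmf or Psmg and a number. The rule found 60 probe sets of 46 genes, out of 31042 probe sets and 14217 genes tested, and used no measured value. Of the 46 genes, 44 encode proteasome subunits, regulators or chaperones, and Psmc3ip and Psme3ip1 match by name only. Another 6 probe sets that carry such a symbol beside another gene's were left out. A gene with several probe sets is given by the brightest of them.

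The 26S proteasome degrades proteins that carry ubiquitin chains. Its 20S core is a barrel of alpha rings, which gate the entry, around beta rings, which hold the proteolytic sites, and a 19S cap with a ring of ATPases recognizes, unfolds and feeds in the substrate. Proteins retained in the endoplasmic reticulum, apolipoprotein B in liver cells among them, are extracted into the cytosol and degraded by this machine. Immunoproteasome beta subunits, which interferon induces, replace the catalytic beta subunits, and other activators can take the place of the 19S cap.

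All lines carried a tetracycline-inducible expression system, were kept in 10 µg/ml blasticidin and 250 µg/ml Zeocin, and received 1 µg/ml tetracycline for 24 h, the controls included. The control group had 2 lines without a Sar1 insert (5 arrays), and the other groups expressed human SAR1A (Sar1A, 1 line, 4 arrays), human SAR1B (Sar1B, 2 lines, 8 arrays) or its constitutively active mutant (Sar1B:H79G, 2 lines, 8 arrays). Sar1 is the small GTPase that starts assembly of the COPII coat, by which proteins leave the endoplasmic reticulum. The study compared them to ask how Sar1 forms act on a lipoprotein-secreting cell. By the study's methods individual clones were picked and expanded, so p-values here measure the spread between clonal lines, and the Sar1A group, with 1 line, borrows its spread from the other groups.

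All control arrays belonged to one array series and all other arrays to another, so that in any comparison with control the Sar1 form and the array series cannot be told apart. The comparisons among Sar1B:H79G, Sar1B and Sar1A lie within a single series. The recombinant proteins carried a FLAG tag, and their amounts differed. The study reports more recombinant Sar1 in its Sar1A lines than in the Sar1B:H79G and, by a larger fold, the Sar1B lines. In these comparisons the form and the amount of recombinant Sar1 therefore cannot be told apart. For β-actin, the 5′ minus the 3′ signal, a sign of RNA quality, was -0.88 in control, -0.61 in Sar1A, -0.50 in Sar1B and -0.67 in Sar1B:H79G on the log2 scale.  Of 10 hepatocyte markers 9 were measured, and all 9 lay above the median probe set, with a mean log2 signal over the list of 11.30 in control, 11.20 in Sar1A, 11.23 in Sar1B and 10.93 in Sar1B:H79G. Above that median lay 1 of 5 fibroblast, 0 of 3 endothelial and 1 of 4 leukocyte markers. The part of array series, RNA quality and marker levels in the results was not tested.

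Most proteasome genes had a higher signal in Sar1B:H79G than in control, and the immunoproteasome subunits Psmb9 and Psmb10 went the other way. Against control, 18 of 46 genes rose in Sar1B:H79G and 2 fell (limma, Benjamini-Hochberg adjusted p under 0.05), while over all genes 13.4% rose and 10.6% fell. The rises ran from 0.33 to 0.93 on the log2 scale, or from 1.26-fold to 1.91-fold. The median log2 fold change was 0.30 over the 46 genes and 0.02 over all genes. Proteasome genes are bright on these arrays, and among the 2003 genes at least as bright as their lower quartile 29.2% rose, with a median of 0.19. Since whole cultures were measured, more RNA per cell and more cells that express a gene cannot be told apart.

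These counts depended on the processing. Quantile normalization left 7 genes that rose and 4 that fell, with a median of 0.10. In that fit 3549 of 14217 genes were called, 10.7% rose, and the median over all genes was -0.01. Without control line 2, 4 genes were called, and without Sar1B:H79G line 2, 11. Psmd4, Psma5 and Psmd8 were called under each alternative fit, and Psmd11 in each fit that left out a line. All other calls against control were lost without control line 2.

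Against Sar1B, within the same array series, 7 genes rose in Sar1B:H79G and 1 fell, beside 4.9% and 7.18% of all genes. The median log2 fold change was 0.15 over the 46 genes, and 12.2% of the genes as bright as the members rose, with a median of 0.04. The genes that rose were Psma5, Psma6, Psmc1, Psmd4, Psmd6, Psmd8 and Psmd9, and Psmb10 fell. Of these 8 genes, 6 were also called against control, and Psma6 and Psmc1 were called only against Sar1B. Leaving out a line in turn gave 2 calls without either control line, 2 without either Sar1B line, 5 without Sar1B:H79G line 1 and 1 without Sar1B:H79G line 2. Psmb10 was called in all of them. Against the Sar1A line, Psmd4 alone was called and rose, beside 4.2% of all genes called (1.98% higher and 2.22% lower), and 12 genes were higher at an unadjusted p under 0.05. At that threshold 1324 of 14217 genes were higher, and 366 of the 2003 genes as bright as the members. The median was 0.12 over the 46 genes and 0.00 over genes as bright as they are, of which 4.54% rose. Quantile normalization gave 5 calls against Sar1B and 2 against Sar1A, beside 1847 and 675 of 14217 genes.

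Both Sar1B:H79G lines lay above all 5 other lines for 20 of the 46 genes, and below them for Psmb10. Over all genes these shares were 16.2% and 14.3%. Both lay above both control lines for 34 genes and below them for 4, beside 37.3% and 30.9% of all genes. Both control lines lay below all 5 other lines for 21 of the 46, beside 21.4% of all genes. Relative to the control mean, the median over the 44 proteasome genes was 0.24 and 0.34 in the Sar1B:H79G lines, 0.18 and 0.12 in the Sar1B lines, 0.13 in the Sar1A line and 0.04 and -0.04 in the control lines. Lines of a group differed from each other by a median of 0.10 per proteasome gene in the control group, and by 0.07 and 0.12 in the Sar1B and Sar1B:H79G groups.

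**Figure D1:**
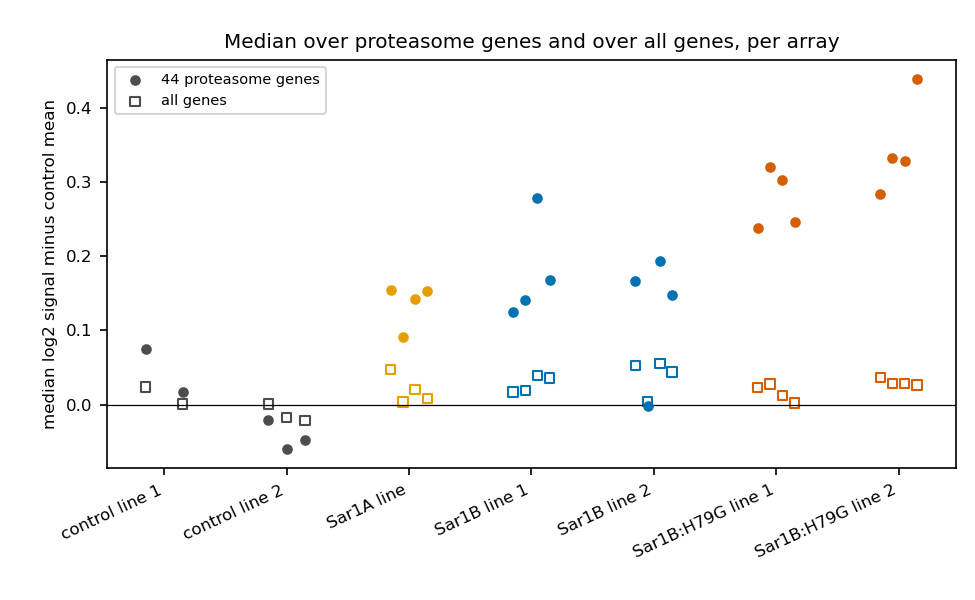
Median over the 44 proteasome genes (filled circles) and over all genes (open squares) on each of the 25 arrays, in log2 units relative to the control mean, by cell line. The arrays of the Sar1B:H79G lines run from 0.24 to 0.44 for proteasome genes, and the medians over all genes stay near 0. Genes as bright as the members, not drawn, had median log2 fold changes against control of 0.19 in Sar1B:H79G, 0.15 in Sar1B and 0.16 in Sar1A.

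**Figure D2:**
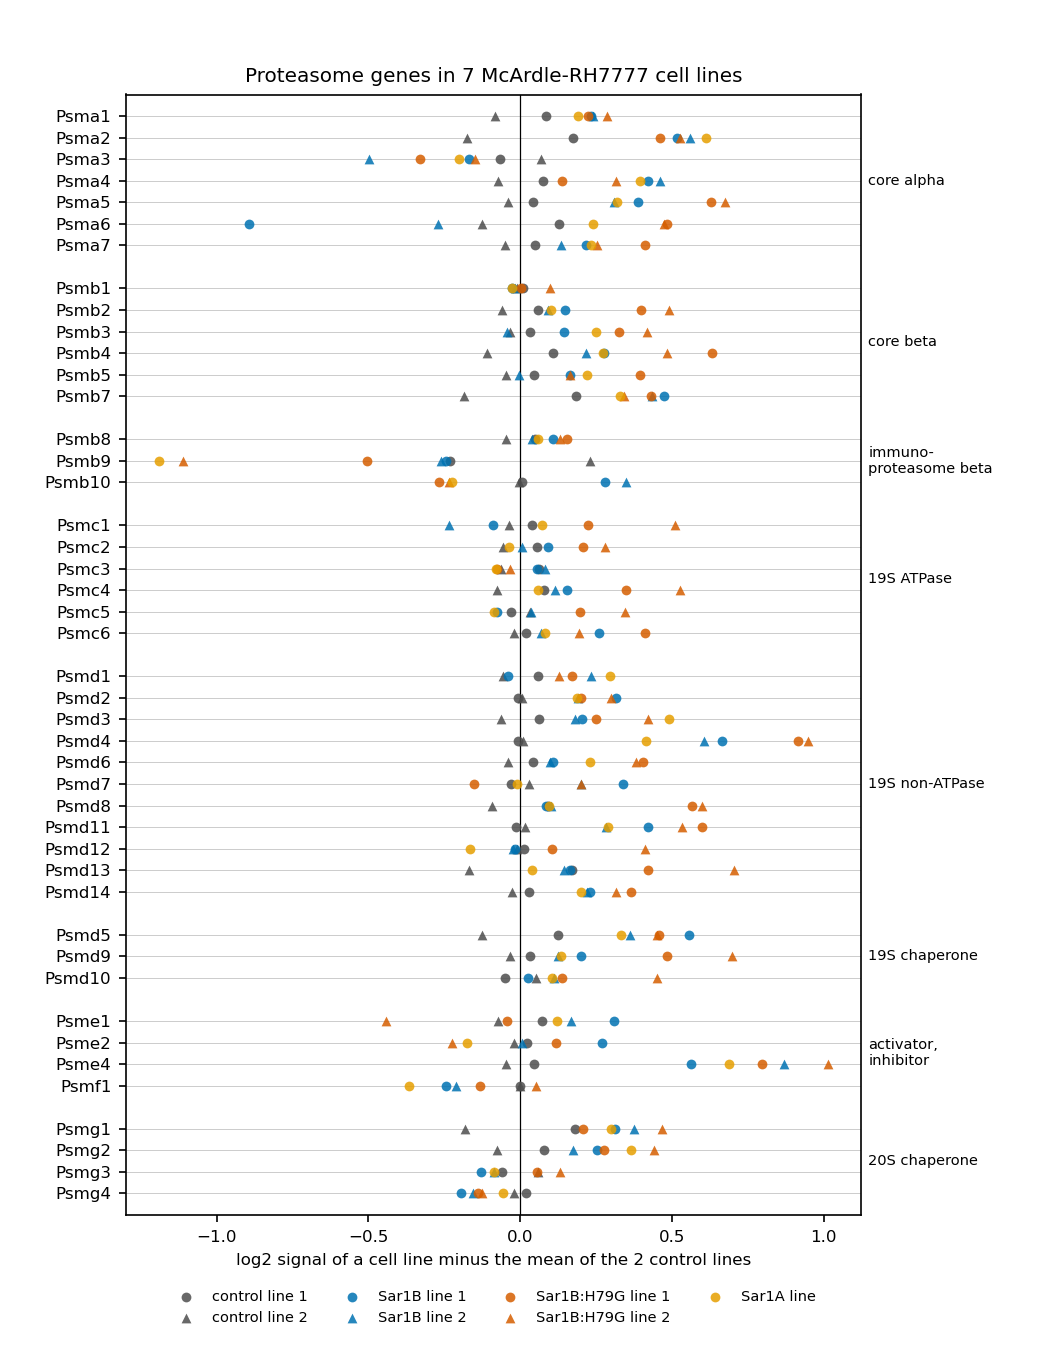
Log2 signal of each proteasome gene in each of the 7 cell lines minus the mean of the control lines, grouped by role; each point is the mean of a line's arrays. Psmd4 and Psme4 reach furthest to the right in the Sar1B:H79G lines, and Psmb9 furthest to the left in the Sar1A line and Sar1B:H79G line 2.

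Alpha subunits of the core form the outer rings, whose tails close the channel. Against control, 3 of 7 rose in Sar1B:H79G (Psma2, Psma5 and Psma7) and 0 fell, beside 13.4% and 10.6% of all genes. The other log2 fold changes lay between -0.24 for Psma3 and 0.48 for Psma6. A brighter probe set that carries both Psma3 and Psma3l, and so was left out, rose by 0.42 ± 0.10 (limma adjusted p = 0.038). Psma5 had log2 signals of 12.37 and 12.28 in the control lines, 12.64 in the Sar1A line, 12.71 and 12.63 in the Sar1B lines and 12.95 and 13.00 in the Sar1B:H79G lines. Control lines were lowest and Sar1B:H79G lines highest, and the Sar1A line lay between the Sar1B lines. The rise was 0.65 ± 0.07 (SE) against control (limma adjusted p = 0.0031) and 0.30 ± 0.07 against Sar1B (adjusted p = 0.048), and the call against Sar1B was lost when any of the 6 lines was left out (adjusted p up to 0.23). Psma2 rose by 0.49 ± 0.12 (adjusted p = 0.033) and Psma7 by 0.33 ± 0.08 (adjusted p = 0.036) against control.

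Psma6 differed most between the forms of Sar1B. Its log2 signal was 13.57 and 13.32 in the control lines, 13.69 in the Sar1A line, 12.55 and 13.18 in the Sar1B lines and 13.93 and 13.92 in the Sar1B:H79G lines. Both Sar1B lines were below every other line, and they differed from each other by 0.62, the widest gap of any proteasome gene between the lines of that group. Against Sar1B the rise in Sar1B:H79G was 1.06 ± 0.20, or 2.08-fold (limma adjusted p = 0.029), and the call was lost without either control line or either Sar1B:H79G line (adjusted p up to 0.078). Neither group differed from control by the test, at 0.48 ± 0.20 for Sar1B:H79G (adjusted p = 0.13) and -0.58 ± 0.20 for Sar1B (adjusted p = 0.12). The RefSeq annotation names 5 pseudogenes after Psma6, and whether its probes read them was not tested.

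Constitutive beta subunits line the inner chamber. Against control, 3 of 6 rose in Sar1B:H79G (Psmb2, Psmb3 and Psmb4) and 0 fell, and against Sar1B 0 of 6 were called, while 3 were higher at an unadjusted p under 0.05. Of all genes 13.4% rose against control, and 1654 of 14217 were higher than in Sar1B at that unadjusted threshold. Psmb4 had log2 signals of 13.78 and 13.57 in the control lines, 13.95 in the Sar1A line, 13.95 and 13.89 in the Sar1B lines and 14.31 and 14.16 in the Sar1B:H79G lines. It was highest in both Sar1B:H79G lines, and the rise against control was 0.56 ± 0.10 (limma adjusted p = 0.013). Psmb2 rose by 0.44 ± 0.07 (adjusted p = 0.011) and Psmb3 by 0.37 ± 0.09 (adjusted p = 0.03). The catalytic subunits Psmb5, of chymotrypsin-like activity, and Psmb7, of trypsin-like activity, had log2 fold changes of 0.28 (adjusted p = 0.1) and 0.39 (adjusted p = 0.07), and Psmb1 one of 0.05. The remaining catalytic subunit, Psmb6, is measured only by a probe set that also carries the symbol Psmb6l1, so that its signal cannot be assigned to either gene. That probe set had 11.49 and 11.36 in the control lines, 11.37 in the Sar1A line, 11.45 and 11.40 in the Sar1B lines and 12.13 and 12.33 in the Sar1B:H79G lines. It was highest in both mutant lines, and it rose by 0.80 ± 0.09 against control (limma adjusted p = 0.0036), 0.80 ± 0.09 against Sar1B (adjusted p = 0.0064) and 0.85 ± 0.11 against Sar1A (adjusted p = 0.02). Under quantile normalization Psmb2, Psmb3 and Psmb4 kept their direction, at 0.20, 0.08 and 0.17, and lost their call.

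Immunoproteasome subunits take the catalytic places of the beta ring after interferon, and they help to produce peptides for antigen presentation. Of the 3 genes, Psmb9 and Psmb10 fell in Sar1B:H79G against control, beside 10.6% of all genes. For Psmb8 the difference was 0.14 ± 0.07 (limma adjusted p = 0.17). Psmb8 was the only member below the median probe set, with a mean log2 signal of 7.38 against 8.13. Psmb9 had log2 signals of 8.55 and 9.01 in the control lines, 7.59 in the Sar1A line, 8.53 and 8.52 in the Sar1B lines and 8.27 and 7.67 in the Sar1B:H79G lines. The Sar1A line was lowest, and the lines of a group lay apart by 0.46 in control and 0.61 in Sar1B:H79G, the widest gaps of any proteasome gene in those groups. Psmb9 fell by 0.81 ± 0.23 against control, a 1.75-fold drop (limma adjusted p = 0.0498). This call was lost without control line 1, control line 2, either Sar1B line or Sar1B:H79G line 2 (adjusted p up to 0.24). The difference was -0.56 ± 0.23 against Sar1B (adjusted p = 0.23) and, for the Sar1A line against control, -1.19 ± 0.28 (adjusted p = 0.089).

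Psmb10 had the smallest adjusted p of any member between Sar1B:H79G and Sar1B. Its log2 signal was 9.72 and 9.71 in the control lines, 9.49 in the Sar1A line, 9.99 and 10.06 in the Sar1B lines and 9.44 and 9.48 in the Sar1B:H79G lines. Sar1B lines were highest, Sar1B:H79G lines lowest, and the Sar1A line lay next to the mutant. Against Sar1B it fell by 0.57 ± 0.06, a 1.48-fold drop (limma adjusted p = 0.0062), and the adjusted p reached at most 0.0355 in the alternative fits. Against control it rose by 0.31 ± 0.06 in Sar1B (adjusted p = 0.038) and fell by 0.25 ± 0.06 in Sar1B:H79G (adjusted p = 0.036), and both calls were lost when any of the 6 lines was left out (adjusted p up to 0.18 and 0.13).

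Promoters of Psmb9 and Psmb10, which fell in Sar1B:H79G against control, are shown with their matches to the motifs searched. The part of these matches in the signals was not tested. RefSeq places Psmb9 on the rat assembly GRCr8 between Tap1 and an RT1 class II gene, with its promoter on the plus strand at chr20:4668750-4669049, and that of Psmb10 on the minus strand at chr19:50743243-50743542. Each runs from 250 bases before to 50 bases after the start of the gene, 5′ to 3′. In Psmb9 the capitals mark a CCAAT box, read on the other strand, and in Psmb10 2 matches to the core of the interferon-stimulated response element, GAAA repeated after any 2 bases. Psmb10 was chosen for display after its values were seen.
Psmb9 promoter: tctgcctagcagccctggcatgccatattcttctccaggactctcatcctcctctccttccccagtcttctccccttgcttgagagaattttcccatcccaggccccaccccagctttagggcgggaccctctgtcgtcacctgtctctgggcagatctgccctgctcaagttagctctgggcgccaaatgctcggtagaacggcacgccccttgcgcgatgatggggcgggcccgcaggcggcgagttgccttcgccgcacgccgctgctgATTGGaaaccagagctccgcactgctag
Psmb10 promoter: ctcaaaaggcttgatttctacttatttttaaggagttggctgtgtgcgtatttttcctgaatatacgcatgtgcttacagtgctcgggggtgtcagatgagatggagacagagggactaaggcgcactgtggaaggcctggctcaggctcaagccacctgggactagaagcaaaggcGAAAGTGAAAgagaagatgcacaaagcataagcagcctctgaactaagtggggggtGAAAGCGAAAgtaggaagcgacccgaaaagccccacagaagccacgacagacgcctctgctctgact
The matches lie at positions -73 to -64 and -17 to -8 from the start of Psmb10. Searched on both strands, this element core occurs in 7 of the 42 member genes with a listed promoter (Psma4, Psmb3, Psmb8, Psmb10, Psmd7, Psme2 and Psmg4) and in 3.92% of 33469 RefSeq promoters of the same length.

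Genes of interferon response and antigen processing, from a list beside the members, did not move together. Against control, 1 of 6 rose in Sar1B:H79G and 1 fell, and the same 2 genes were called against Sar1B. Over all genes 13.4% rose and 10.6% fell against control, and 4.9% and 7.18% against Sar1B. Tap2, a subunit of the peptide transporter that lies next to Psmb8 in the genome, rose by 0.46 ± 0.09 against control (limma adjusted p = 0.019) and by 0.44 ± 0.09 against Sar1B (adjusted p = 0.036). Irf1, an interferon-induced transcription factor, fell by 0.53 ± 0.06 (adjusted p = 0.0044) and by 0.48 ± 0.06 (adjusted p = 0.0097). Its signals were 9.54 and 9.51 in the control lines, 9.14 in the Sar1A line, 9.47 and 9.50 in the Sar1B lines and 9.04 and 8.96 in the Sar1B:H79G lines, so that the Sar1A line again lay nearer to the mutant than to Sar1B. Tap1, the other transporter subunit, had log2 fold changes of 0.03 and -0.10.

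ATPases of the 19S cap pull substrates into the core. Against control, 1 of 6 rose in Sar1B:H79G and 0 fell, and 5 were higher at an unadjusted p under 0.05, among them Psmc6, whose dimmer probe sets had the opposite sign. Of all genes 13.4% rose, and 3207 of 14217 were higher at that unadjusted threshold. Psmc4 rose by 0.44 ± 0.09 (limma adjusted p = 0.022), a call lost without control line 2 or Sar1B:H79G line 2 (adjusted p up to 0.12) and under quantile normalization. Psmc1 had log2 signals of 11.82 and 11.75 in the control lines, 11.85 in the Sar1A line, 11.69 and 11.55 in the Sar1B lines and 12.01 and 12.29 in the Sar1B:H79G lines. Sar1B lines were lowest and Sar1B:H79G lines highest, and Psmc1 rose by 0.53 ± 0.11 against Sar1B (adjusted p = 0.04), a call lost when any line other than Sar1B:H79G line 1 was left out (adjusted p up to 0.17). Against control the difference was 0.37 ± 0.11 (adjusted p = 0.061). Psmc2 and Psmc5 were also highest in both Sar1B:H79G lines, at 0.24 (adjusted p = 0.061) and 0.27 (adjusted p = 0.059) above control, while Psmc3 was at -0.05 (adjusted p = 0.6).

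Non-ATPase subunits of the 19S cap, which bind and strip ubiquitin or hold the cap together, are the largest role and held the most calls in number. Against control 7 of 11 rose in Sar1B:H79G (63.6%) and 0 fell, and against Sar1B 3 of 11 rose (27.3%). Of the 3 chaperones of the 19S cap 66.7% rose against control, and of all genes 13.4%. Against Sar1B 4.9% of all genes rose. Among genes as bright as the members 29.2% rose against control and 12.2% against Sar1B. Psmd4, a receptor for ubiquitin chains, was the only member called against control, Sar1B and Sar1A alike. Its log2 signal was 11.87 and 11.89 in the control lines, 12.29 in the Sar1A line, 12.54 and 12.48 in the Sar1B lines and 12.79 and 12.83 in the Sar1B:H79G lines. The groups followed each other without overlap, from control through Sar1A and Sar1B to Sar1B:H79G. The rise in Sar1B:H79G was 0.93 ± 0.06 against control, or 1.91-fold (limma adjusted p = 0.0011). Against Sar1B it was 0.30 ± 0.06 (adjusted p = 0.038) and against Sar1A 0.52 ± 0.08 (adjusted p = 0.027). The call against Sar1B was lost when any of the 6 lines was left out (adjusted p up to 0.19), and that against Sar1A without either control line or Sar1B:H79G line 2 (adjusted p up to 0.079). Sar1B itself exceeded control by 0.64 ± 0.06 (adjusted p = 0.011), a call lost without control line 2 (adjusted p = 0.097).

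The promoter of Psmd4 is shown because this gene had the largest rise against control. It lies on the minus strand of GRCr8 at chr2:185297152-185297451 and spans the start of the gene by the same window. Capitals mark its 2 CCAAT boxes, at positions -9 to -5 from the start (other strand) and 11 to 15.
Psmd4 promoter: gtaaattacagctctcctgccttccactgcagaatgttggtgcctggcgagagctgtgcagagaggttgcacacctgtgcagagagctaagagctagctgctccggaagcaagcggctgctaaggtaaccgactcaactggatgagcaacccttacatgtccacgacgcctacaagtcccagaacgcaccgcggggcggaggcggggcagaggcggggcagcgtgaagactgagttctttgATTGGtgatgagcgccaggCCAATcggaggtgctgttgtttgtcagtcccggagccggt
The CCAAT box, which NF-Y binds, was found in 22 of 42 member promoters and in 37.5% of all promoters.

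Psmd8, a lid subunit, rose against control and Sar1B by similar amounts. Its log2 signal was 11.40 and 11.22 in the control lines, 11.41 in the Sar1A line, 11.40 and 11.41 in the Sar1B lines and 11.88 and 11.91 in the Sar1B:H79G lines. Only the mutant lines stood apart from the other 5, by 0.58 ± 0.08 against control (limma adjusted p = 0.0062) and 0.49 ± 0.08 against Sar1B (adjusted p = 0.018). The call against Sar1B was lost without either Sar1B or either Sar1B:H79G line (adjusted p up to 0.08). Other lid subunits rose against control, Psmd11 by 0.56 ± 0.07 (adjusted p = 0.0054), Psmd13 by 0.56 ± 0.14 (adjusted p = 0.036), Psmd6 by 0.39 ± 0.06 (adjusted p = 0.01) and Psmd3 by 0.33 ± 0.08 (adjusted p = 0.038). Psmd14, the enzyme that cuts ubiquitin chains off the substrate, rose by 0.34 ± 0.06 (adjusted p = 0.015). The scaffold subunits Psmd1 and Psmd2 had log2 fold changes of 0.15 (adjusted p = 0.33) and 0.25 (adjusted p = 0.057).

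**Figure D3:**
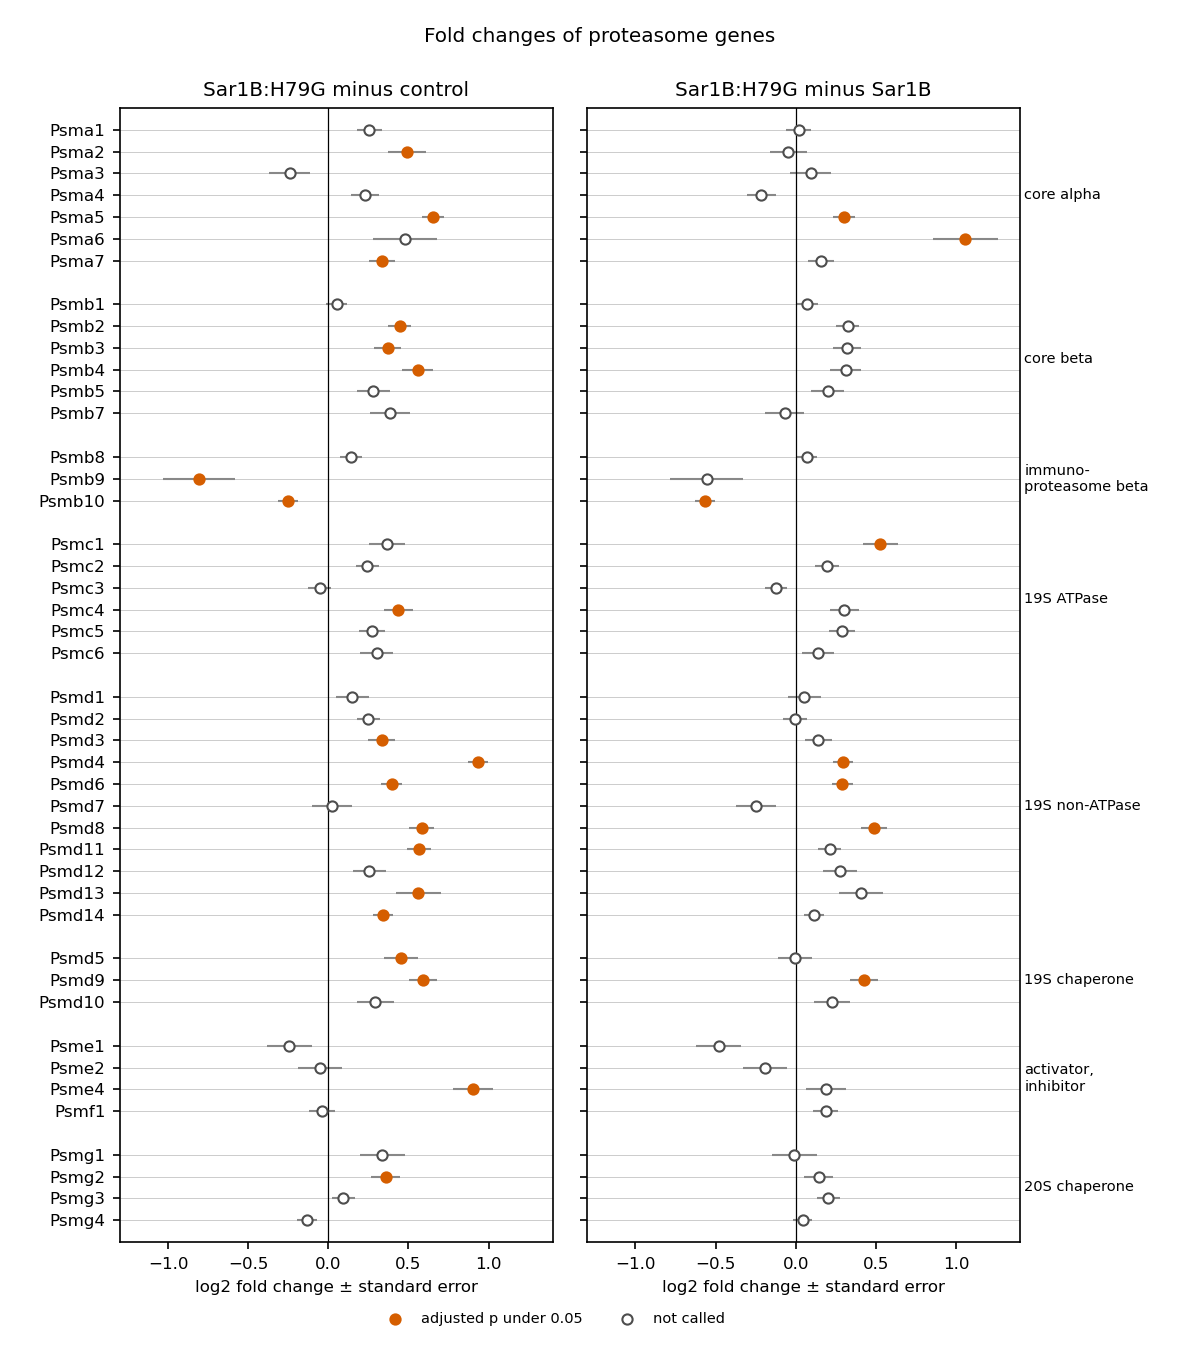
Log2 fold change with its standard error for each of the 44 proteasome genes, Sar1B:H79G minus control on the left and Sar1B:H79G minus Sar1B on the right; filled points passed the adjusted p of 0.05. On the left 18 points are called to the right of 0 and 2 to the left, and on the right 7 and 1, with Psma6 at 1.06 and Psmb10 at -0.57.

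Chaperones assemble the 19S ATPase ring before it joins the core. Against control 2 of 3 rose in Sar1B:H79G, Psmd9 by 0.59 ± 0.09 (limma adjusted p = 0.0084) and Psmd5 by 0.45 ± 0.11 (adjusted p = 0.032). The share of all genes that rose was 13.4%. Psmd9 had log2 signals of 10.42 and 10.36 in the control lines, 10.52 in the Sar1A line, 10.59 and 10.51 in the Sar1B lines and 10.87 and 11.09 in the Sar1B:H79G lines. Only Psmd9 was also called against Sar1B, at 0.43 ± 0.09 (adjusted p = 0.039), a call lost when any line other than Sar1B:H79G line 1 was left out (adjusted p up to 0.17). Psmd5 was as high in the Sar1B lines, at 12.38 and 12.19, as in the Sar1B:H79G lines, at 12.28 and 12.28. Psmd10, also called gankyrin, differed from control by 0.29 ± 0.11 (adjusted p = 0.11). Among the 4 chaperones of the core, Psmg2 rose by 0.36 ± 0.09 (adjusted p = 0.038), and Psmg1, Psmg3 and Psmg4 had values of 0.34, 0.09 and -0.13.

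Activators and the inhibitor of the core split. Psme4, which encodes the activator PA200, rose in Sar1B:H79G, and Psme1 and Psme2, which form the interferon-induced activator PA28, and the inhibitor Psmf1 did not pass the test. Psme4 had log2 signals of 10.22 and 10.13 in the control lines, 10.87 in the Sar1A line, 10.74 and 11.05 in the Sar1B lines and 10.97 and 11.19 in the Sar1B:H79G lines. All lines with a Sar1 form lay above both control lines, and the Sar1B and Sar1B:H79G lines overlapped. The rise against control was 0.90 ± 0.12 in Sar1B:H79G (limma adjusted p = 0.0065) and 0.72 ± 0.12 in Sar1B (adjusted p = 0.028), and the difference between these groups was 0.19 ± 0.12 (adjusted p = 0.51). Without control line 2 the first call was lost (adjusted p = 0.067), and the second was lost without either control line or Sar1B line 2 (adjusted p up to 0.18). Psme1 had log2 fold changes of -0.24 ± 0.14 against control (adjusted p = 0.25) and -0.48 ± 0.14 against Sar1B (adjusted p = 0.1), Psme2 values of -0.05 and -0.19, and Psmf1 values of -0.04 and 0.19.

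**Figure D4:**
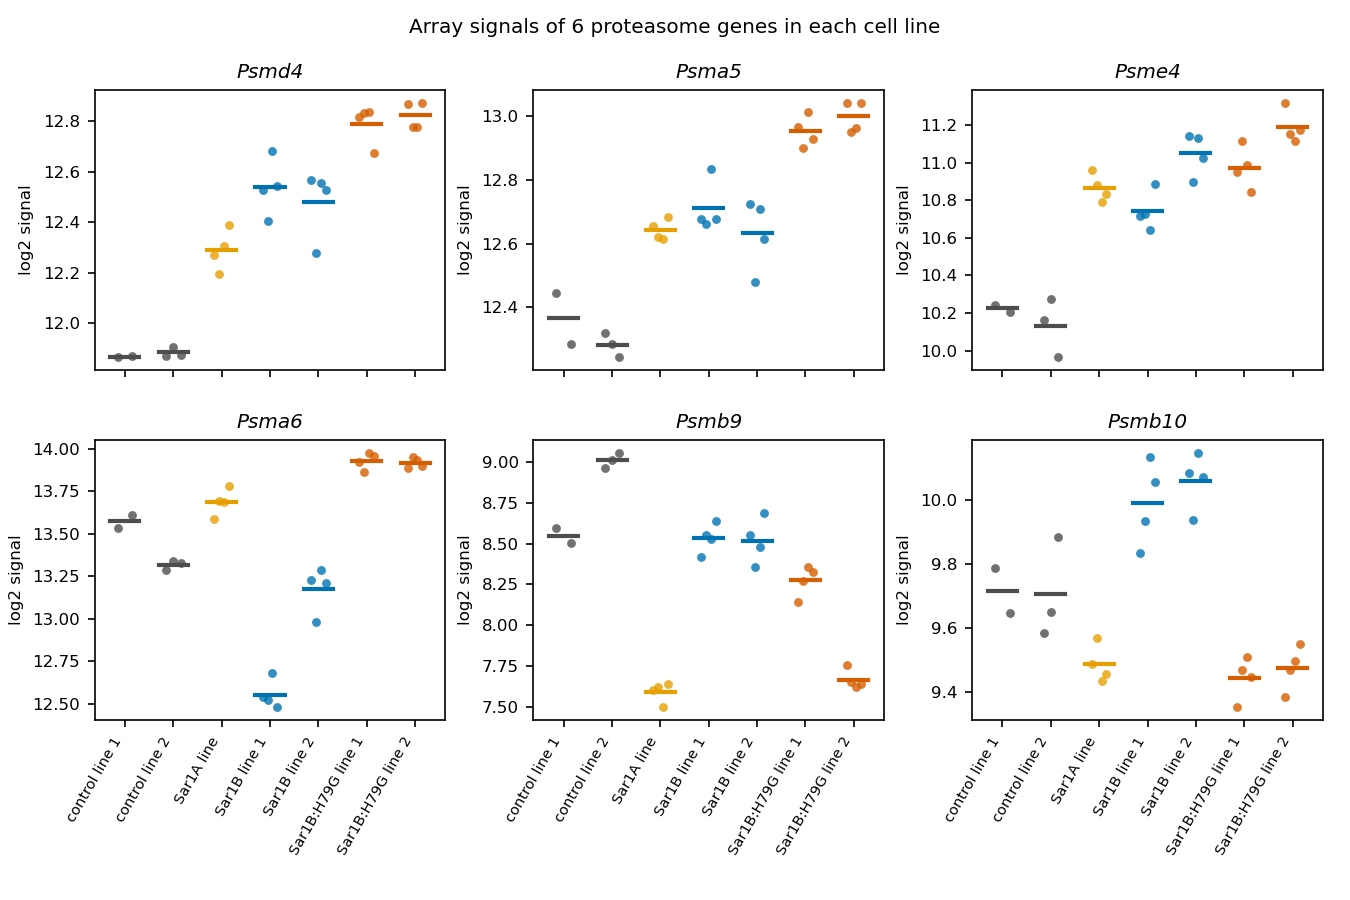
Log2 signal on each array (points) and mean of each cell line (bars) for Psmd4, Psma5, Psme4, Psma6, Psmb9 and Psmb10; the vertical axes differ and do not start at 0. Psmd4 and Psma5 are highest in the Sar1B:H79G lines, Psme4 is lowest in the control lines, Psma6 is lowest in the Sar1B lines, and Psmb9 is lowest in the Sar1A line and Sar1B:H79G line 2.

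The Psme4 promoter, shown because this gene had the second largest rise against control, holds a match to TGACNNNGC. That is the core of the antioxidant response element that the proteasome regulator NRF1 and its relative NRF2 read. This promoter lies on the plus strand of GRCr8 at chr14:108706393-108706692, in the same window. Capitals mark the match on the other strand, at positions -55 to -47 from the start.
Psme4 promoter: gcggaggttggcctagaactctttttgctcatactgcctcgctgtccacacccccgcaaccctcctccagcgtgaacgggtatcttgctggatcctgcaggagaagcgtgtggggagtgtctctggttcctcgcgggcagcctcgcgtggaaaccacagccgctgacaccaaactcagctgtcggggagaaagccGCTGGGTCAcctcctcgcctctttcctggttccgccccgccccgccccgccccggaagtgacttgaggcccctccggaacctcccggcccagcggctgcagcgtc
That motif was found in 7 of 42 member promoters (Psma3, Psmb2, Psmb5, Psmd1, Psmd3, Psmd9 and Psme4) and in 12.1% of all promoters. TGATGNAA, the core of the composite element that ATF4 binds, was found in Psmb2 and Psmb4, 2 of 42, and in 3.98% of all promoters. In the 4 promoters shown, no marked match overlaps a match to another of these motifs.

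In Sar1B, 7 genes rose against control and 0 fell, beside 4.72% and 2.01% of all genes (6.73% in all), with a median log2 fold change of 0.14. Among genes as bright as the members 10.1% rose, with a median of 0.15. The members that rose were Psma2, Psma4, Psma5, Psmb10, Psmd4, Psmd11 and Psme4, of which 6 were also called in Sar1B:H79G against the same control lines. Psma4, the exception, had log2 signals of 11.05 and 10.90 in the control lines, 11.37 in the Sar1A line, 11.40 and 11.44 in the Sar1B lines and 11.12 and 11.29 in the Sar1B:H79G lines. It was higher in each Sar1B line than in both mutant lines, with 0.44 ± 0.09 for Sar1B against control (limma adjusted p = 0.039) and -0.21 ± 0.09 between mutant and Sar1B (adjusted p = 0.24). Quantile normalization moved the median of Sar1B against control to -0.02, with 3 genes that rose and 2 that fell. In that fit 981 of 14217 genes were called, 2.77% rose, and the median over all genes was -0.03. Leaving out a line gave 3 calls without control line 1, 0 without control line 2, 2 without either Sar1B line and 4 without either Sar1B:H79G line.

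In the Sar1A line 0 of 46 genes were called against control by limma, beside 0.865% of all genes called, with 0.661% higher and 0.204% lower. At an unadjusted p under 0.05, 12 were higher and 3 lower. So were 1605 and 1212 of 14217 genes, and 512 and 68 of the 2003 genes as bright as the members. With each array as a replicate 24 members were called, though the arrays of this 1 line are technical replicates. The share of all genes called in that fit is not given here. The median log2 fold change was 0.13, beside 0.16 for genes as bright as the members. Under quantile normalization the median over the members was -0.05. The values furthest from 0 were 0.69 ± 0.15 for Psme4 (limma adjusted p = 0.082) and -1.19 for Psmb9. Against Sar1B, 0 members were called, beside 0.00703% of all genes, and 6 passed the unadjusted threshold. With each array as a replicate 9 members were called, and for that fit too the share of all genes is not given here. The unadjusted threshold was passed by 1207 of 14217 genes, and by 278 of the 2003 genes as bright as the members.

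Probe sets of a gene did not always give the same result. Of 9 members with several probe sets, 6 had at least 1 called in Sar1B:H79G against control, for 1 of these every probe set was called, and 0 had probe sets called in opposite directions. All 3 probe sets of Psmd14 rose, by 0.34, 0.57 and 0.85. For Psmd7, a lid subunit, the brighter probe set had 0.02 ± 0.12 (limma adjusted p = 0.91) and the other rose by 0.53 ± 0.08 (adjusted p = 0.0081). Psme4 had a second probe set that rose by 0.73 ± 0.14 (adjusted p = 0.018) and another, dimmer one at -0.38 ± 0.11 (adjusted p = 0.054). Of the 3 probe sets of Psmd11 only the brightest was called, with 0.00 and 0.03 for the others. For Psmc6 the brightest probe set had 0.30 ± 0.10 (adjusted p = 0.08), and the others were below control, at -0.26 ± 0.09 (adjusted p = 0.083) and -0.41 ± 0.12 (adjusted p = 0.059). The dimmer probe sets of Psmc4 and Psmd9 had -0.11 (adjusted p = 0.23) and 0.26 (adjusted p = 0.075). Of 4 probe sets that carry Psme3 beside Aoc3 and G6pc1, which were left out, 1 rose and 2 fell against control. RefSeq names pseudogenes after 17 of the 46 genes, and their part in these signals was not tested.

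Partners of the proteasome outside the name rule were taken from separate lists. Of 9 partners that assemble, move or sit on the complex, 5 rose in Sar1B:H79G against control and 0 fell, and against Sar1B 1 rose. The shares that rose were 55.6% and 11.1%, beside 13.4% and 4.9% of all genes. Among genes as bright as the members they were 29.2% and 12.2%. Akirin2, which carries proteasomes into the nucleus, had log2 signals of 9.12 and 8.87 in the control lines, 9.74 in the Sar1A line, 9.60 and 9.68 in the Sar1B lines and 10.00 and 10.05 in the Sar1B:H79G lines. It was the only gene of these lists and the members to pass the test in the Sar1A line against control, at 0.75 ± 0.12 (limma adjusted p = 0.0498), and it rose by 1.03 ± 0.09 in Sar1B:H79G (adjusted p = 0.0022). Txnl1, a thioredoxin-like protein bound to the cap, rose by 0.75 ± 0.09 against control (adjusted p = 0.0038), and Ube3c, a ubiquitin ligase of the proteasome, by 0.61 ± 0.07 against control (adjusted p = 0.0034) and 0.31 ± 0.07 against Sar1B (adjusted p = 0.043).

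Of 14 shuttle factors and cofactors of the unfoldase VCP, 6 rose against control and 3 against Sar1B, and 0 fell. The shares that rose were 42.9% and 21.4%, beside 13.4% and 4.9% of all genes. Among genes as bright as the members they were 29.2% and 12.2%. Zfand2a, a stress-induced zinc finger protein that binds the proteasome, changed more than any member. Its log2 signal was 10.60 and 10.36 in the control lines, 11.49 in the Sar1A line, 11.35 and 10.42 in the Sar1B lines and 13.04 and 12.77 in the Sar1B:H79G lines. The mutant lines lay far above the others, by 2.42 ± 0.29 against control (limma adjusted p = 0.0043) and 2.02 ± 0.29 against Sar1B (adjusted p = 0.013). Ubxn4, which tethers VCP to the endoplasmic reticulum, rose by 0.87 ± 0.11 against control (adjusted p = 0.0056). Faf1, a VCP cofactor, rose by 0.68 ± 0.08 against control (adjusted p = 0.0041) and 0.61 ± 0.08 against Sar1B (adjusted p = 0.0096), and Ubxn1, another cofactor, by 0.37 ± 0.08 against Sar1B (adjusted p = 0.047).

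Regulators of proteasome gene expression formed another list. Of 7 genes, 2 rose in Sar1B:H79G against control, 0 fell, and 0 were called against Sar1B, where 1 was higher and 1 lower at an unadjusted p under 0.05. The 2 that rose are 28.6% of the list, beside 13.4% of all genes and 29.2% of genes as bright as the members. Against Sar1B, 1654 of 14217 genes were higher and 2267 lower at that unadjusted threshold. Mafk, a small Maf partner of the NRF factors, rose by 1.00 ± 0.15 (limma adjusted p = 0.0084), and Ngly1, which removes sugars from NRF1, by 0.32 ± 0.09 (adjusted p = 0.046). Nfe2l1, the gene of NRF1, differed by 0.04 ± 0.06 (adjusted p = 0.64), and Nfe2l2, the gene of NRF2, by -0.50 ± 0.15 (adjusted p = 0.055). The ubiquitin-activating enzymes Uba1 and Uba6, the only measured genes of their list, were not called, at 0.12 and 0.27 against control, and 0 of them passed an unadjusted p of 0.05.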

How the data were processed

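RNA of 7 cell lines had been hybridized to 25 Affymetrix rat genome arrays. The signals deposited by the authors are log2 values after their loess and MAS 5 normalization (version of the tool not given in the sources used here), without detection calls. Their range gave the log base. After 57 array controls were left out, 31042 probe sets remained, of which 20826 carried 1 gene symbol, 436 several and 9780 none. Symbols came from the platform annotation, and all 60 member probe sets matched RefSeq by gene identifier, with 0 symbols changed.

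Arrays of the same line are technical replicates by the study's methods and were averaged, and the 7 line means were fitted over all probe sets with limma 3.58.1 (R 4.3.3), 1 mean per group for 4 groups and 3 residual degrees of freedom. P-values were Benjamini-Hochberg adjusted over the 31042 probe sets. The number of arrays and lines limits the precision. The fit was also run on simulated line means with known changes in some probe sets. The simulation held no difference between array series, so it has no bearing on the overlap of control and series. Promoters are those of RefSeq on GRCr8, which does not enter the signals.

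The members and lists were chosen with earlier results of these data known. Named were the 3 called members with the largest change in each comparison, the largest called rise and fall of each role, members with discordant probe sets, Psmb8, Psmb9, Psmb10, Psme1 and Psme2, and the 3 called genes with the largest change of each further list; other members were added after their values were seen.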

Additional observations from a re-analysis of the deposited data

Results flagged for a closer look

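The median over the 44 proteasome genes on an array of Sar1B:H79G line 2 was 0.439 above the control mean, apart from the other 7 arrays of the group, which reached from 0.238 to 0.331. The median over the 19S ATPase genes on an array of Sar1B line 2 was -0.175, below the other arrays of that group, from 0.028 to 0.17. In all, 36 sets of arrays were examined for such a distant array, and chance sets apart about 5% of them.

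Psma6, Psmb10 and Psmc1 had differences from control of opposite sign in Sar1B:H79G and in Sar1B, and the difference between these groups passed the test (limma). Only for Psmb10 did each group also pass against control. Psma6 differed by 1.06, from 0.48 in Sar1B:H79G and -0.58 in Sar1B. Psmb10 differed by -0.57, from -0.25 and 0.31. Psmc1 differed by 0.53, from 0.37 and -0.16.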

How the results depend on the processing

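Counts of called members are given for Sar1B:H79G against control, against Sar1B and against Sar1A, Sar1B against control, Sar1A against control and Sar1A against Sar1B, in this order, and were 20, 8, 1, 7, 0 and 0. With each array as a replicate they were 38, 30, 18, 29, 24 and 9, and in a mixed fit of all arrays, lines being random, 35, 21, 14, 20, 16 and 4. Quantile normalization gave 11, 5, 2, 5, 0 and 0, equal medians on all arrays 2 for Sar1B against control, fits of only the groups compared 14, 2, 0, 4, 4 and 0, and eBayes with trend and robust options 14, 3, 0, 2, 0 and 0. At an adjusted p under 0.01, 6, 1, 0 and 0 were called in the first 4. Over all 14217 genes, quantile normalization called 3549, 1847, 675, 981, 177 and 1, and equal medians 899 for Sar1B against control. For the other alternative fits the share of all genes called is not given here, so their counts cannot be set against it. Leaving out each line in turn gave 4 to 17, 1 to 5, 0 to 3, 0 to 4, 0 and 0. The Sar1A line, the only one of its group, was kept in all of these fits. Averaging the probe sets of each gene, or counting all 60 probe sets, gave 18 and 24 in the first comparison. Of 20 calls against control, 3 were kept in every fit, and of 8 against Sar1B, 1. Among named genes, Psme2 in Sar1B:H79G against control ranged from -0.22 to 0.12 and turned its sign, at 0.12, without Sar1B:H79G line 2. Line numbers only mark lines: deviations of lines with the same number correlated at 0.0071, 0.192 and 0.0752 between groups, and a fit with the line number as a replicate block, possible for 3 comparisons, gave 20 against control, 4 against Sar1B and 3 for Sar1B against control. The cause of these changes was not tested. Without detection calls, no signal could be set against its background.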
